A study of Mus musculus with 2 samples.

Results

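The metalloproteinase set comprised 45 of the 31053 genes in the deposited matrices of mouse heart cells. It was chosen by gene symbol and used no measured value: 22 MMPs (symbols Mmp and a number), 19 ADAMTS (Adamts and a number), and the inhibitors Timp2, Timp3, Timp4 and Reck. Expression was measured by droplet single-cell RNA sequencing in heart cells from which cardiomyocytes and CD45+ leukocytes had been depleted. The db/+ library came from heterozygous carriers of the db mutation of Lepr, the leptin receptor gene, and no salt is given for it in the labels. The second library came from db/db mice, which carry the mutation on both copies and are known to become obese and diabetic, and which received 1% salt, a group that the series title names as a HFpEF model (heart failure in which the ejection fraction is preserved). Genotype differed between the libraries, and the labels name salt for the db/db library only. Whether salt also differed is not given, and the parts of genotype and salt cannot be told apart. The hearts were 4 per genotype, all male, per the design text, which gives neither their age nor whether they were pooled. Each group was 1 library, so no test was run, every interval covers counting error only, and no difference between the libraries has a replicate check.

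MMPs are zinc-dependent endopeptidases that cleave collagens, proteoglycans and other extracellular proteins. Most are secreted as inactive precursors, while the membrane-type members stay on the cell surface. ADAMTS proteases are secreted enzymes with thrombospondin repeats that split proteoglycans such as versican, trim procollagens or act on microfibrils. TIMPs bind the active site of these enzymes, TIMP3 is held in the matrix and also blocks several ADAMTS proteases, and RECK is an inhibitor anchored to the cell surface. In the heart, fibroblasts are known as the main makers of interstitial collagen, and turnover of that collagen takes part in remodelling.

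GENCODE M21 (GRCm38) lists all 45 as protein-coding genes. Of the 22 MMP genes, 9 lie in a cluster on chromosome 9, which spans 427 kb from Mmp13 to Mmp7. Mmp3 (stromelysin 1, chromosome 9, 7445822 to 7455975, plus strand) was the only member of that cluster with a level described below. Mmp27 had 60 UMIs over both libraries, Mmp8 12 and Mmp13 3, and Mmp1b, Mmp7, Mmp10, Mmp12 and Mmp20 had none. RefSeq promoter sequence (GRCm38.p6) was available for 31 members, and the 250 bases before each start site were searched on both strands for TGANTCA, the letters of the AP-1 motif, and for TATAAA. The first of these motifs was found in 7 of the 9 cluster genes (Mmp1b, Mmp3, Mmp7, Mmp10, Mmp12, Mmp13 and Mmp20). It was found in none of the 22 other members with a sequence. Mmp7 and Mmp12 each also had a promoter without it. Counted by promoter, 7 of the 34 promoters of members held it, against 6.75% of 32851 promoters in all. Of those 7 genes, 6 also held TATAAA, which was found in 12.4% of all promoters. The 120 bases before the start site are shown for Mmp3, for 2 neighbours with both motifs and for Mmp27 with neither, to set the gene with most UMIs beside genes of the cluster with few or no UMIs. Both motifs are in capitals, and the matches are a description of letters and not of bound sites.
Mmp3, chr9:7445702-7445821, plus strand: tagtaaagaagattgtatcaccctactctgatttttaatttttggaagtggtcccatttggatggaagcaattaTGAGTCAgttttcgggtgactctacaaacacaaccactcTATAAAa
Mmp10, chr9:7502222-7502341, plus strand: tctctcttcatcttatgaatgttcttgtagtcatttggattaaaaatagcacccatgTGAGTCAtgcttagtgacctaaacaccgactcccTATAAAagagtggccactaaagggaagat
Mmp13, chr9:7272394-7272513, plus strand: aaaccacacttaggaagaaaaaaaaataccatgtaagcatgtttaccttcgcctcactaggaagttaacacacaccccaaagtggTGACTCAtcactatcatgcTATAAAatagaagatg
Mmp27, chr9:7571276-7571395, plus strand: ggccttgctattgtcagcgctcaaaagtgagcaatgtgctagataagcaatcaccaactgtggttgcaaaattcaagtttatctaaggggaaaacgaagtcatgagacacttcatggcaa
The AP-1 letters began 46 bases before the annotated start in Mmp3, 63 in Mmp10 and 35 in Mmp13, and were followed by TATAAA in all of these genes. Mmp10 had no UMI in any barcode of either library and Mmp13 had 3, so the shared letters stood in genes with and without transcripts here.

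In all, 5676 barcodes with 44935235 UMIs (unique molecular identifiers, so that copies of a molecule count once) came from the db/+ heart cells and 4751 with 40974634 from the db/db and salt heart cells, and 4948 and 4144 barcodes were kept, with medians of 7126.5 and 7889 UMIs. The libraries shared 7 barcode sequences. Lepr had 402 and 367 UMIs, and this 3' count does not read the db mutation and so does not check the labels. Cells were placed by the UMIs of fixed marker genes, none of them a member, so that each class is a range of a marker score and is called "-like". The classes compared were fibroblast-like (1237 and 1095 cells), endothelial-like without endocardial-like and lymphatic cells (3111 and 2618), endocardial-like (44 and 41), pericyte-like (50 and 43) and smooth muscle-like cells (21 and 29). Defining markers were among the leading genes of the other classes, with Col1a1, Dcn and Lum in fibroblast-like, Kcnj8 and Abcc9 in pericyte-like, Myh11 and Acta2 in smooth muscle-like, and Npr3 and Cytl1, beside the fibroblast marker Dcn, in endocardial-like cells. Endothelial-like cells, placed by Pecam1, Cdh5 and 6 further markers, were led by haemoglobin transcripts and then by Fabp4, Cd36 and Gpihbp1. Levels are UMIs summed over the cells of a class, given per 1000000 UMIs of all genes there (CPM), and in these bulk-like sums fewer expressing cells and less RNA per cell cannot be told apart. Since 3' counting takes 1 tag per molecule, levels were not divided by gene length. Barcodes with 2 lineages' markers, 342 and 247, were left out, and 119 and 73 of them had the mural score on top, so that the mural classes are a strict selection. Of the endocardial-like cells 18 and 10 lay within 0.1 of that limit. Over both libraries 230 interstitial, 71 matrix-activated, 132 adventitial, 186 arterial, 183 venous, 566 capillary and 291 angiogenic cells lay within 0.1 of a threshold of their subset, and cells under the thresholds are called other.

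Of the 45 members, 22 reached 10 CPM with at least 30 UMIs in a class of at least 50 cells: 8 MMPs, 10 ADAMTS and all 4 inhibitors. In both libraries 15 of the 22 were higher in fibroblast-like than in endothelial-like cells (Mmp2, Mmp3, Mmp11, Mmp14, Mmp16, Mmp19, Mmp23, Adamts2, Adamts5, Adamts10, Adamts12, Adamts15, Adamts19, Timp2 and Reck). The reverse held for 5 (Adamts1, Adamts7, Adamts9, Mmp15 and Timp4), and Timp3 and Adamts4 had no constant order. For Adamts7 the intervals of these classes met in both libraries. Its levels were 6.70 against 5.61 CPM in db/+ and 6.66 against 6.10 CPM in db/db and salt. Of the other 23 members, 7 had no UMI in any barcode, 7 had 1 to 12 UMIs over both libraries and 9 had 38 to 458. No UMI was found for Adamts13, the von Willebrand factor protease, for Mmp7, Mmp10, Mmp12, Mmp20 and Mmp21, or for the collagenase Mmp1b. The gelatinase Mmp9 and the collagenases Mmp8 and Mmp13, known from leukocytes and from injured tissue, were among those with 1 to 12 UMIs, in samples from which CD45+ cells had been removed.

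**Figure D1:**
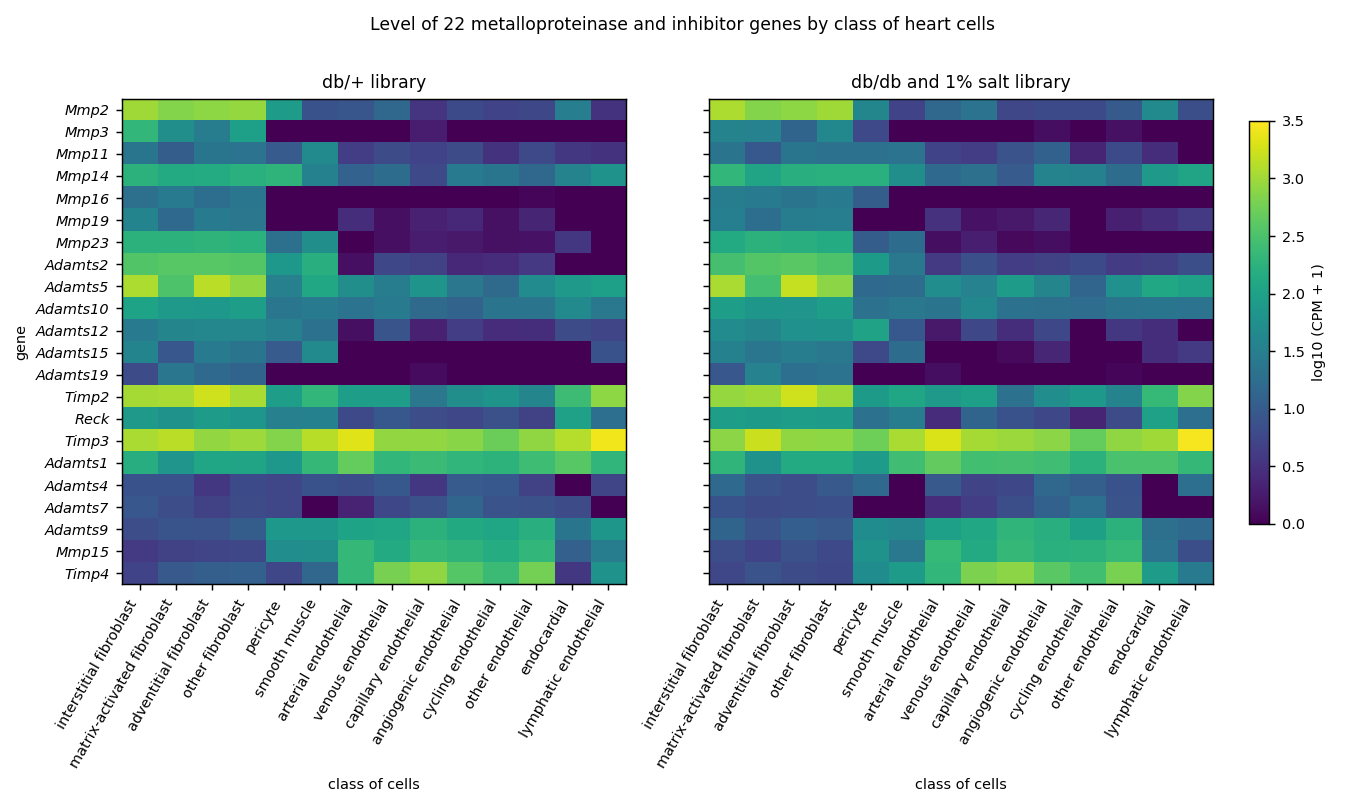
Level of the 22 members, as log10 of CPM plus 1 (colour), in each class of cells (columns), with the db/+ library on the left and the db/db and salt library on the right. Most rows from Mmp2 to Reck are brighter in the fibroblast than in most endothelial columns, several of them at low levels. Rows from Adamts9 to Timp4 are brighter in the endothelial columns, and Timp3 is bright in all columns.

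Summed over the family, MMPs made up 1360.1 CPM of fibroblast-like and 226 CPM of endothelial-like cells in the db/+ library, and 1410.5 and 246 CPM in the db/db and salt library. The ADAMTS sum was 1636 and 482 CPM in db/+, and 1703 and 569 CPM in db/db and salt. For Timp2, Timp3 and Timp4 together it was 2318 and 1515 CPM, then 2045 and 1624 CPM. Protease transcripts were thus several times higher per UMI in fibroblast-like cells, while the summed inhibitor level differed less between these classes. Lymphatic endothelial-like cells (26 and 25 cells) had the highest TIMP sum of all classes, 3522 and 3545 CPM.

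Among the gelatinases, Mmp2, which cleaves denatured collagen and basement membrane collagen, was at 853 CPM in the db/+ library and 971 CPM in the db/db and salt library in fibroblast-like cells. Its intervals were 836 to 869 and 954 to 987 CPM, so the db/db and salt level lay above the db/+ level by more than counting error, at a log2 ratio of 0.18. A gene was called higher or lower only where the levels, with 10 CPM added to each, differed by at least 1.5-fold, and Mmp2 was not called. By subset it was at 1010.1 and 1184 CPM in interstitial, 798 and 811 CPM in adventitial and 706 and 703 CPM in matrix-activated fibroblast-like cells, db/+ first. Interstitial cells thus led in both libraries. Their intervals were apart between the libraries and those of matrix-activated cells were not, a contrast between subsets that was not tested. Endothelial-like cells had 5.69 and 9.12 CPM, which is 0.667% and 0.939% of the fibroblast-like level. The 8 fibroblast markers stood at 0.138 to 1.49% (median 0.163%) and 0.233 to 1.53% (median 0.288%) of theirs in the same cells. Mmp2 thus lay above the median share of these markers there and within their range.

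Mmp14, the membrane-type protease that activates pro-MMP2 together with TIMP2, was at 157 CPM in the db/+ library and 168 CPM in the db/db and salt library in fibroblast-like cells. Pericyte-like cells had a level of the same size, 188 and 168 CPM, from 41 and 34 UMIs, with intervals of 135 to 255 and 116 to 235 CPM. Fibroblast markers reached at most 30.2% and 26.3% of their fibroblast-like level in pericyte-like cells, so the Mmp14 there was above all 8 of them. Among endothelial-like subtypes, angiogenic cells, which are marked by Apln and Esm1, had 25.6 and 36.2 CPM, capillary cells 4.93 and 9.05 CPM, and lymphatic cells 59.9 and 109.9 CPM. Angiogenic cells were above capillary cells in both libraries, with intervals that do not meet (20.9 to 31.1 against 2.92 to 7.78 CPM in db/+).

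Mmp15, a second membrane-type MMP, had the opposite placement. Its level was 191 CPM in the db/+ library and 202 CPM in the db/db and salt library in endothelial-like cells and 4.06 and 5.37 CPM in fibroblast-like cells. Arterial (214 and 223 CPM) and capillary cells (213 and 214 CPM) had more of it than venous cells (137 and 139 CPM) in both libraries. Endocardial-like cells, the lining of the heart chambers, were far below with 10.9 and 20.2 CPM, from 4 and 11 UMIs. Mmp16, another member of the membrane-type group, was found at 21.1 and 25.7 CPM in fibroblast-like cells, with 1 and 0 UMIs in all endothelial-like cells. The membrane-type genes thus split between the lineages, Mmp15 in endothelial-like and Mmp16 in fibroblast-like cells.

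Of the other MMPs, Mmp23, a transmembrane MMP without the usual hemopexin domain, was at 178 CPM in the db/+ library and 149 CPM in the db/db and salt library in fibroblast-like cells, at a log2 ratio of -0.25. In endothelial-like cells it had 12 and 5 UMIs, or 0.283% and 0.172% of the fibroblast-like level. Mmp19 was at 25.5 and 28.7 CPM in fibroblast-like cells, and Mmp11, a stromelysin that is activated inside the cell by furin, at 19.2 and 19.2 CPM. Mmp11 was lower in matrix-activated cells (9.90 and 8.12 CPM) than in interstitial (21.7 and 21.4 CPM) and adventitial cells (21.9 and 22.2 CPM). Mmp17 and Mmp28 had 458 and 266 UMIs over all barcodes and were under the level for a description by class.

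Mmp3, which cleaves many matrix proteins and can activate other pro-MMPs, was the member that differed most between the libraries in the large classes. In fibroblast-like cells it was at 93.5 CPM in the db/+ library and 32.6 CPM in the db/db and salt library, from 1151 and 444 UMIs, with intervals of 88.2 to 99.1 and 29.7 to 35.8 CPM. The log2 ratio of db/db and salt over db/+, with 10 CPM added to both, was -1.28, which is past the 1.5-fold limit. Without the added 10 CPM it was -1.52 (-1.68 to -1.36). At least 1 UMI was found in 166 of 1237 cells (13.4%) and 84 of 1095 (7.67%). After thinning to 1500 UMIs per cell, which left out 23 and 11 cells, the shares were 6.43% (5.11 to 7.95) and 2.77% (1.87 to 3.93). Median depth was 9631 UMIs per fibroblast-like cell in db/+ and 12003 in db/db and salt. In endothelial-like cells, with median depths of 5469 and 5487.5, Mmp3 had 3 and 4 UMIs in all, a share of 0.0643% and 0.153% of cells.

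By subset, Mmp3 was at 208 and 35.5 CPM in interstitial, 51.8 and 34.5 CPM in matrix-activated, 28.8 and 12.5 CPM in adventitial and 93.4 and 42.7 CPM in the other fibroblast-like cells, db/+ first. It was lower in db/db and salt in all 4, and the intervals met only in the matrix-activated cells (42.6 to 62.5 against 25.7 to 45.4 CPM). The order of the subsets also differed, with interstitial cells far above matrix-activated cells in db/+ and level with them in db/db and salt. The transcript was held by few cells. The 10 cells with most Mmp3 carried 33.7% of its UMIs in db/+ and 45.0% in db/db and salt, and without them the levels were 62.5 and 18.1 CPM, a log2 ratio of -1.37. Without the 10 highest cells of each subset the levels were 80.3 and 8.68 CPM in interstitial and 45.1 and 10.3 CPM in other cells, but 5.51 and 0 CPM in matrix-activated and 0.712 and 0 CPM in adventitial cells. In adventitial cells of the db/+ library 1 cell held 44 of the 84 UMIs, and without the top cell of each library the levels there were 13.8 and 7.02 CPM, so the lower level in the matrix-activated and adventitial subsets rests on few cells.

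**Figure D2:**
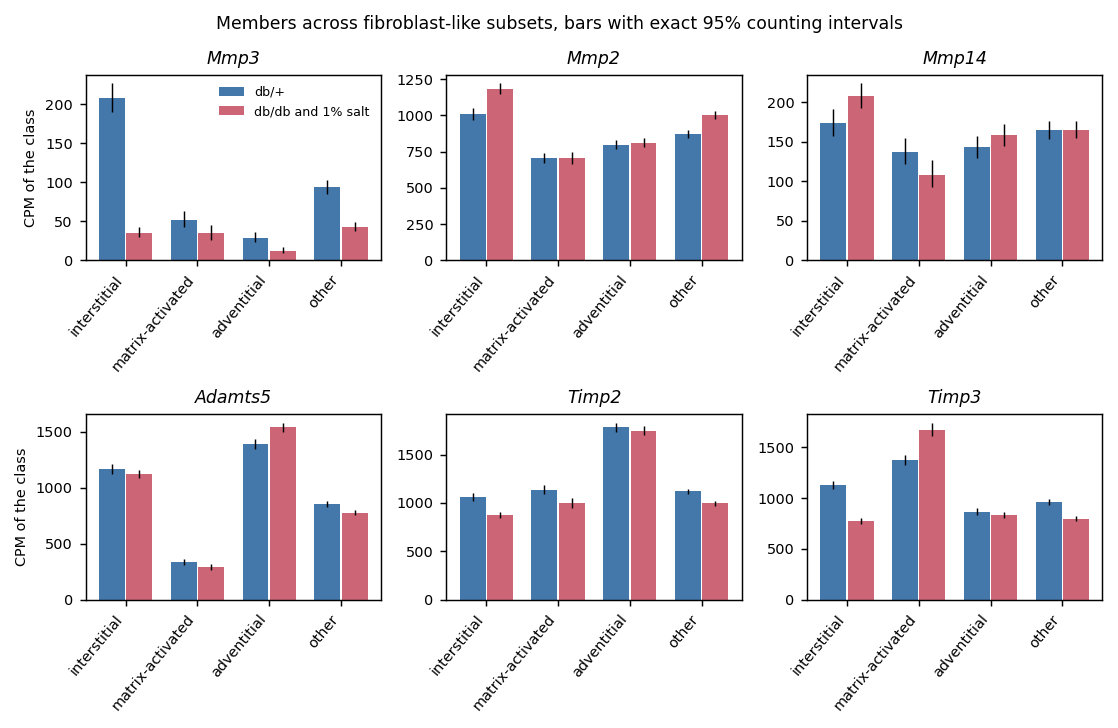
CPM of Mmp3, Mmp2, Mmp14, Adamts5, Timp2 and Timp3 (y axes) in interstitial, matrix-activated, adventitial and other fibroblast-like cells (x axes), with db/+ in blue and db/db and salt in red and exact 95% Poisson intervals as lines. Mmp3 is lower in red in each subset, Adamts5 is lowest in matrix-activated cells, and Timp3 is highest there.

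Values of other gene groups lay beside the lower Mmp3 in fibroblast-like cells. In a list of 12 inflammatory cytokines and chemokines, chosen after the data were seen, 6 reached 10 CPM in these cells and 3 were called lower: Ccl7 (135 and 37.9 CPM), Ccl2 (251 and 138 CPM) and Cxcl1 (146 and 78.9 CPM). None was called higher, and Il33 was at 55.8 and 81.0 CPM. Of 12 immediate early and heat shock genes, which are known to respond to cell isolation, all reached 10 CPM, none was called lower and Nr4a1 was called higher (66.1 and 114 CPM). Fos and Jun, the genes of AP-1 subunits, were at 848 and 937 CPM and at 1284 and 1279 CPM. Leukocyte markers were at or near 0 in these cells: the 8 leukocyte markers summed to 0.569 and 1.69 CPM with 3 and 3 of them at 0, and the 7 macrophage markers to 2.11 and 2.43 CPM with 1 and 1 at 0. The part of these genes in the Mmp3 difference was not tested.

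Called genes were rare in the large classes. Of 8676 genes with a mean of at least 10 CPM in fibroblast-like cells, 0.588% were called higher and 0.934% lower in db/db and salt. Of the 17 members among them 0 were called higher and 1, Mmp3, lower. In endothelial-like cells 0.557% of 8261 genes were called higher and 1.57% lower, and 0 of 9 members were called in either direction. The median log2 ratio of the members was 0.10 in fibroblast-like cells, where that of all genes was 0.03, and 0.14 in endothelial-like cells, where that of all genes was 0.05. Over the 11 members with at least 50 CPM in fibroblast-like cells the median turned to -0.08. Apart from Mmp3, log2 ratios in fibroblast-like cells ran from -0.25 (Mmp23) to 0.44 (Adamts12), and in endothelial-like cells from -0.10 (Timp2) to 0.33 (Adamts5).

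**Figure D3:**
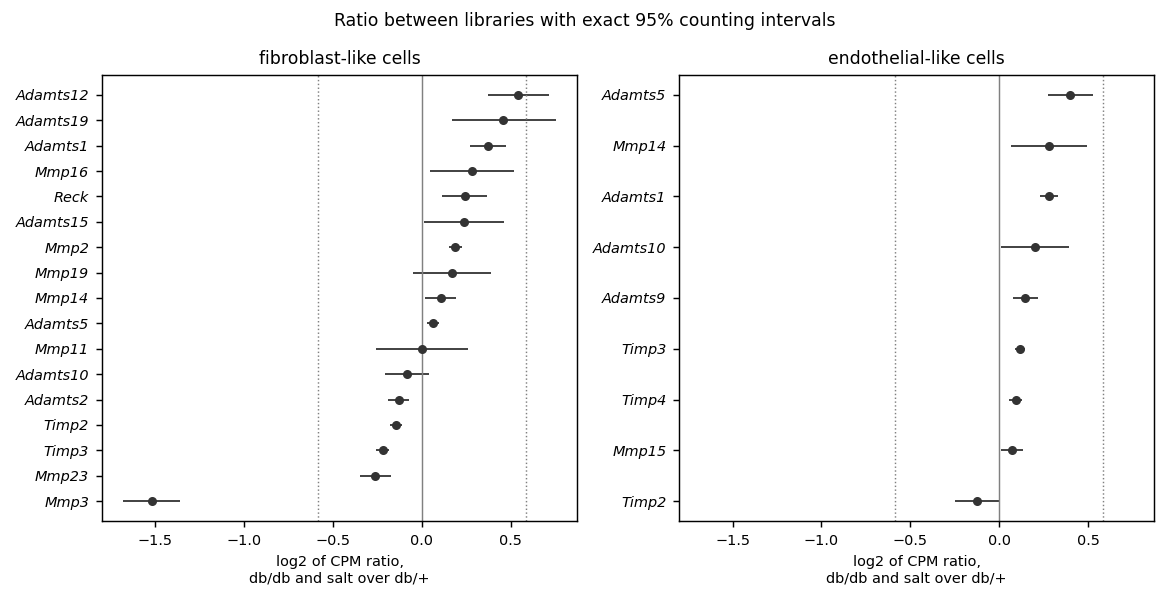
Log2 ratio of CPM, db/db and salt over db/+ with nothing added (x axis), of the members that reached a mean of 10 CPM in fibroblast-like (left) and endothelial-like cells (right), with exact 95% counting intervals as bars and dotted lines at 1.5-fold. Mmp3 stands at -1.52 and the points of the others lie inside the dotted lines, while the bars of Adamts12 and Adamts19 in fibroblast-like cells reach past 1.5-fold.

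Among the proteoglycan-cleaving ADAMTS genes, Adamts5, the aggrecanase that also cleaves versican, was at 953 CPM in the db/+ library and 995 CPM in the db/db and salt library in fibroblast-like cells. Adventitial cells, marked by Pi16 and Dpp4, had the highest level at 1388 and 1538 CPM, followed by interstitial cells at 1164 and 1122 CPM, and matrix-activated cells, marked by Postn and Cilp, had 336 and 288 CPM. These intervals did not meet in either library, for example 1346 to 1431 against 312 to 362 CPM in db/+, so the order held in both. Endothelial-like cells had 41.6 and 54.9 CPM, or 4.36% and 5.52% of the fibroblast-like level, above all 8 fibroblast markers. Within them capillary cells were highest (64.3 and 81.9 CPM) and cycling cells lowest (14.97 and 12.9 CPM).

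Adamts1, which cleaves versican and other proteoglycans, lies next to Adamts5 on chromosome 16 (85793827 to 85803113, minus strand), with 53.1 kb between the genes, and was distributed the other way. It was at 256 CPM in the db/+ library and 310.1 CPM in the db/db and salt library in endothelial-like and 111 and 143 CPM in fibroblast-like cells. Smooth muscle-like cells had 212 and 270 CPM, from 32 and 66 UMIs. Arterial cells had 476 and 455 CPM and endocardial-like cells 385 and 316 CPM, and venous (208 and 273 CPM), capillary (238 and 288 CPM) and angiogenic cells (199.7 and 263 CPM) were lower in both libraries. The arterial and endocardial-like intervals met in db/+ (450.4 to 503 and 324 to 453 CPM) and not in db/db and salt (429.7 to 481 and 271 to 367 CPM). Between the libraries the gene was higher in db/db and salt by a log2 ratio of 0.35 in fibroblast-like and 0.27 in endothelial-like cells, both under the limit for a call. The subtypes were not alike in this: venous, capillary and angiogenic cells had log2 ratios of 0.38, 0.27 and 0.38, and arterial cells -0.07.

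Adamts9, another versican-cleaving protease, was at 142 CPM in the db/+ library and 157 CPM in the db/db and salt library in endothelial-like cells and 7.80 and 9.70 CPM in fibroblast-like cells. Capillary cells were highest (178 and 195 CPM), arterial cells lower (105 and 92.8 CPM) and endocardial-like cells far below (21.8 and 18.4 CPM), an order unlike that of Adamts1. Lymphatic cells had 71.01 and 14.9 CPM, from 32 and 5 UMIs. Adamts15, which lies 20.1 kb from Adamts8 on chromosome 9, was at 23.6 and 27.7 CPM in fibroblast-like cells, and 0 and 5 UMIs were found in endothelial-like cells, where 3 counts would be 0.126 and 0.154 CPM. Adamts4 was low in all large classes, with 5.12 and 9.26 CPM in fibroblast-like and 5.69 and 7.53 CPM in endothelial-like cells. It reached 14.7 CPM in interstitial fibroblast-like cells of the db/db and salt library against 6.56 in db/+. Adamts4 too was described only because a subset reached 10 CPM, so a value of this size was part of the choice.

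Adamts2, which removes the amino propeptide of procollagens, was at 372 CPM in the db/+ library and 340.04 CPM in the db/db and salt library in fibroblast-like cells and varied little between their subsets, from 297 CPM (interstitial, db/db and salt) to 395 CPM (adventitial, db/db and salt). Its level in endothelial-like cells was 2.61 and 3.64 CPM. The other procollagen proteases, Adamts3 and Adamts14, had 58 and 184 UMIs over all barcodes, of which 51 and 145 were in fibroblast-like cells.

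Adamts12 and Adamts7 cleave COMP, a cartilage and tendon matrix protein that was itself called lower in fibroblast-like cells. Adamts12 was at 37.5 CPM in the db/+ library and 54.6 CPM in the db/db and salt library in fibroblast-like cells, with intervals of 34.1 to 41.03 and 50.7 to 58.6 CPM. At a log2 ratio of 0.44 it had the highest ratio of the 17 members tested in this class, still below 1.5-fold. Without the added 10 CPM the ratio was 0.54 (0.37 to 0.71), an interval that holds the 1.5-fold limit. A higher level in db/db and salt was found in interstitial (27.5 and 47.3 CPM), adventitial (41.1 and 58.6 CPM) and other cells (40.2 and 61.3 CPM), while matrix-activated cells had 37.7 and 37.9 CPM. With 10 CPM added, the interstitial levels differed by more than 1.5-fold and those of the other subsets did not. In pericyte-like cells Adamts12 was at 32.0 and 104 CPM, from 7 and 21 UMIs, and was called higher. The intervals of the libraries met there, and 16.6% of all genes tested in that class were called higher. Adamts7 was under 10 CPM in both large classes (5.61 and 6.10 CPM in fibroblast-like cells, 6.70 and 6.66 CPM in endothelial-like cells). It was described only because a subset reached 10 CPM, so a highest subset above that level was part of the choice. Among arterial, venous, capillary and angiogenic cells Adamts7 was highest in the angiogenic cells at 12.9 and 11.1 CPM.

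Adamts10, which binds fibrillin microfibrils, was at 85.1 CPM in the db/+ library and 80.1 CPM in the db/db and salt library in fibroblast-like cells. Endothelial-like cells had 19.6 and 22.5 CPM, or 23.03% and 28.1% of that, far above the fibroblast markers, and venous cells were highest among arterial, venous, capillary, angiogenic and cycling cells (27.8 and 42.2 CPM). Adamts19, on chromosome 18, was a gene of fibroblast-like cells (13.3 and 18.3 CPM) with 1 and 2 UMIs in endothelial-like cells. It was highest in matrix-activated cells (22.6 and 35.2 CPM) and lowest in interstitial cells (5.33 and 7.79 CPM), and matrix-activated cells were the lowest subset for Adamts5.

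Among the inhibitors, Timp2, which blocks MMPs and helps MMP14 to activate pro-MMP2, was at 1268 CPM in the db/+ library and 1146 CPM in the db/db and salt library in fibroblast-like cells. Adventitial cells had 1781 and 1747 CPM, against 1065 and 871 CPM in interstitial and 1135 and 999 CPM in matrix-activated cells. Lymphatic cells had the highest Timp2 level among the endothelial and mural classes, at 801 and 707 CPM, from 361 and 238 UMIs. Endocardial-like cells had 254 and 222 CPM and endothelial-like cells 52.2 and 47.9 CPM, with a minimum of 23.3 and 19.8 CPM in capillary cells. The 8 fibroblast markers in lymphatic cells had a median of 0.101% and 0.199% of their fibroblast-like level and a maximum of 10.3% and 9.73%, and Timp2 was at 63.2% and 61.7% of its own.

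Timp3, the inhibitor bound to the matrix, was the one member with a high level in every class. It was at 1041 CPM in the db/+ library and 893 CPM in the db/db and salt library in fibroblast-like cells and at 942 and 1021 CPM in endothelial-like cells. Lymphatic (2661 and 2811 CPM) and arterial cells (2133 and 2018 CPM) were highest in both libraries. Capillary (842 and 929 CPM), venous (868 and 1055 CPM) and angiogenic cells (754 and 784 CPM) had less, and cycling cells had the least (519.5 and 473 CPM). Smooth muscle-like cells were at 1342 and 1119 CPM, pericyte-like cells at 705 and 529 CPM and endocardial-like cells at 1295 and 1005 CPM. Without the top cell of each library the pericyte-like levels were 637 and 309 CPM.

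Between the libraries Timp3 did not move one way. In interstitial fibroblast-like cells it was lower in db/db and salt (1126 and 770.2 CPM, log2 ratio -0.54), and in matrix-activated cells it was higher (1371 and 1676 CPM, 0.29). The intervals of the libraries did not meet in either subset, 1084 to 1169 against 741 to 799.98 CPM in the first and 1321 to 1421 against 1610.2 to 1743 CPM in the second. Among endothelial-like subtypes the log2 ratio was 0.28 in venous and 0.14 in capillary cells and -0.08 in arterial cells. The use of strand in counting is not given in the labels or headers, and Timp3 lies inside Syn3 on the opposite strand, which had 1155 and 1183 UMIs over all barcodes against 46891 and 41901 of Timp3.

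Timp4 was an endothelial gene here, at 521 CPM in the db/+ library and 555 CPM in the db/db and salt library in endothelial-like and 9.02 and 5.07 CPM in fibroblast-like cells. Endothelial markers in fibroblast-like cells stood at 1.21 to 22.7% and 0.747 to 19.2% of their endothelial-like level, against 1.73% and 0.913% for Timp4. Capillary cells were highest (836 and 778 CPM), then venous (605 and 638 CPM) and angiogenic (373 and 403 CPM), with arterial cells at 215 and 207 CPM and lymphatic cells at 59.9 and 26.7 CPM. In arterial, capillary and venous cells the order of Timp4 was thus not that of Timp3, which was highest in the arterial cells. Timp4 lies inside Syn2 on the opposite strand, which had 544 and 416 UMIs against 14518 and 12787.

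Reck, the inhibitor on the cell surface, was at 72.1 CPM in the db/+ library and 85.1 CPM in the db/db and salt library in fibroblast-like cells and 5.06 and 5.68 CPM in endothelial-like cells. Endocardial-like cells had 98.2 and 101 CPM, as much as fibroblast-like cells, from 36 and 55 UMIs. The 8 fibroblast markers reached at most 19.1% and 14.1% of their fibroblast-like level in endocardial-like cells, against 136% and 119% for Reck, 20.01% and 19.4% for Timp2 and 3.52% and 4.73% for Mmp2.

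**Figure D4:**
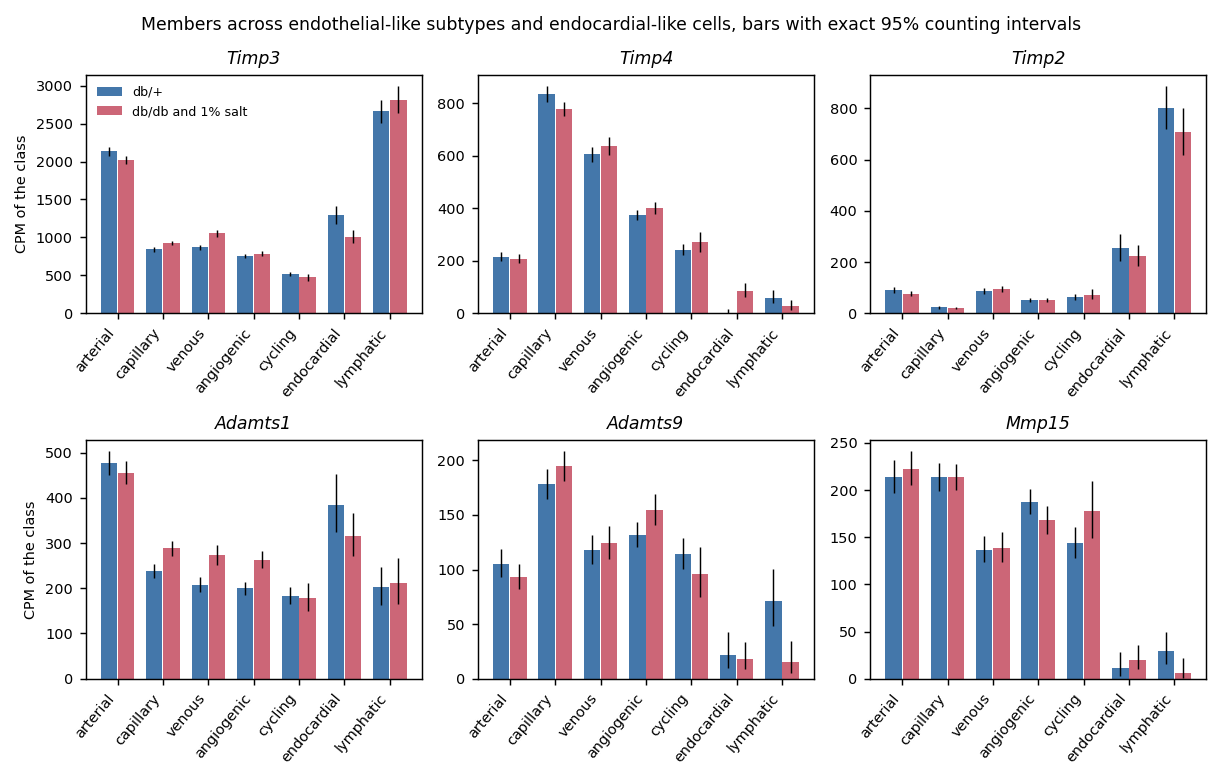
CPM of Timp3, Timp4, Timp2, Adamts1, Adamts9 and Mmp15 (y axes) in 5 endothelial-like subtypes, endocardial-like and lymphatic cells (x axes), with db/+ in blue, db/db and salt in red and exact 95% Poisson intervals as lines. Timp3 peaks in lymphatic and arterial cells, Timp4 in capillary cells and Timp2 in lymphatic cells, and Mmp15 is low in endocardial-like and lymphatic cells.

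The small classes gave few molecules. Endocardial-like cells held 366686 and 544239 UMIs, and 12.5% of 8686 genes were called higher and 8.68% lower there. Of 13 members 4 were called higher (Adamts5, Adamts8, Mmp14 and Timp4) and 2 lower (Adamts10 and Adamts17). Adamts8 had 3 and 16 UMIs, Adamts10 17 and 12 and Adamts17 6 and 2, and their intervals met between the libraries. Timp4 had 1 UMI in db/+ and 47 in db/db and salt (2.73 and 86.4 CPM), but 27 of the 47 were in 1 of 41 cells, and 8 cells had any. Without that cell the level in db/db and salt was 38.6 CPM. For the 7 capillary markers the sum in these endocardial-like cells was 406 and 908 CPM, with 6 of 7 higher in db/db and salt and 0 of 7 at 0 in either library, and their part in the Timp4 difference was not tested. For Adamts5 (76.4 and 125 CPM), 40 of 68 UMIs were in 1 cell, and without the top cell of each library the levels were 61.2 and 54.6 CPM, a log2 ratio of -0.14. Mmp14 was at 35.5 and 77.2 CPM, from 13 and 42 UMIs, and at 25.4 and 58.7 CPM without the top cell.

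Pericyte-like cells held 218462 and 202362 UMIs, and 16.6% of 8525 genes were called higher and 16.4% lower. Of 15 members 3 were called higher (Adamts12, Mmp11 and Timp4) and 2 lower (Adamts5 and Mmp2), so the members' share lay near that of all genes. Smooth muscle-like cells held 151248 and 244825 UMIs, with 21.3% of 8553 genes called higher and 16.8% lower. Of 17 members 2 were called higher (Adamts8 and Timp4) and 9 lower (Adamts2, Adamts5, Adamts9, Adamts12, Adamts15, Mmp11, Mmp15, Mmp23 and Timp2). Only Timp2 among them had 30 UMIs in the higher library (205 and 118 CPM, 31 and 29 UMIs). Its intervals met between the libraries, and at a 20% mitochondrial limit its log2 ratio went from -0.74 to -0.37 and it was not called. The 8 fibroblast markers summed to 2995 and 1385 CPM in these cells with 5 of 8 lower in db/db and salt and 1 and 0 at 0, the endothelial markers to 1177 and 1863 CPM with none at 0, and the cardiomyocyte markers to 225 and 600.4 CPM with 6 and 1 of 8 at 0. Their part in the lower members was not tested, and with cells of up to 20% mitochondrial UMIs the calls in this class fell from 11 to 4.

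Other genes of the pathway came from lists that hold no member. Of 10 further metzincins and ADAMTS-like genes tested in fibroblast-like cells, 1 was called higher, Adam19 (54.8 and 90.7 CPM, log2 ratio 0.64), a membrane protease that sheds growth factors, and 0 lower. Of 12 activators, clearance receptors and other inhibitors, 0 were called higher, and Timp1, the TIMP kept out of the set by its rule, was called lower (180 and 97.3 CPM, -0.83). It was at 579 and 513 CPM in matrix-activated cells and at 155 and 49.8 CPM in adventitial cells, so that its difference was not shared evenly. Matrix-activated cells were 165 of 4948 cells in db/+ and 100 of 4144 in db/db and salt, and their part in the Timp1 and Comp values of all fibroblast-like cells was not tested.

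Of 15 substrates tested in fibroblast-like cells, 1 was called higher and 1 lower. Eln, the elastin gene, was at 412 and 634 CPM (0.61), and Comp at 91.2 and 39.6 CPM (-1.03). Comp is 1 of the 9 markers that place matrix-activated cells, so their holding nearly all Comp was in large part fixed by the placement. Within them its levels were 499 and 348 CPM. Versican (Vcan, 633 and 518 CPM) and Col3a1 (3942 and 3108 CPM) did not reach the limit. In endothelial-like cells none of 7 metzincins and none of 7 activators and inhibitors was called, and of 9 substrates only Dcn was called higher. Dcn is also 1 of the 8 fibroblast markers. Its 24.3 and 44.5 CPM there were 0.138% and 0.233% of its fibroblast-like level, the lowest share of these markers. The 8 markers summed to 95.2 and 159 CPM in endothelial-like cells. The part of fibroblast transcripts in the Dcn call was not tested.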

How the data were processed

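The deposited values were UMI counts per gene and barcode, which the authors made with Cell Ranger 6.0.2 per the file headers. Seurat and the GRCm38 (mm10) build are named in the submitters' processing notes, and no source used here gives the annotation release. Positions came from GENCODE M21, where all 45 identifiers were found.

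Barcodes with at most 10% mitochondrial UMIs and at least 500 genes were kept (4948 and 4144). A cell went to the lineage whose markers scored highest (at least 0.3 of a scaled score). Barcodes with a second lineage at 50% or more of that score were left out, and no doublet caller was run. Endocardial-like and lymphatic cells were endothelial cells with 0.3 or more of their own score, and subsets needed a mean z of 0.3 and a lead of 0.2. UMIs were summed per class and library, at 1 library per group, over libraries of 44935235 and 40974634 UMIs. Intervals are exact Poisson (levels) and Clopper-Pearson (shares) at 95%, and a floor is 3 counts. A gene was called at 1.5-fold on log2 of CPM plus 10 among genes with a mean of at least 10 CPM. Described by class were members with at least 10 CPM and 30 UMIs in a class of at least 50 cells. Between libraries, called members with 30 UMIs in the higher library and up to 4 genes of each pathway list with the largest ratio were described. Other pathway genes and called members under 30 UMIs that are given values, Timp4 in pericyte-like and smooth muscle-like cells included, were chosen after their values were seen. Some results on other genes are not reported here. The members and lists were chosen with earlier results of these data known. Alternatives were another placement (multinomial likelihood), up to 20% mitochondrial UMIs, the mean CPM over cells, 1 or 50 CPM added, median-ratio scaling, a 50 CPM filter and no filter. A 40% limit on a second lineage and leaving out top cells were chosen after seeing the data. Python 3.11.15, numpy 2.4.6, scipy 1.17.1 and matplotlib 3.10.9 were used, and the code was tested on simulated data.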

Additional observations from a re-analysis of the deposited data

Results flagged for a closer look

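Timp3 moved in opposite directions in the 2 large classes, with a log2 ratio of db/db and salt over db/+ of -0.22 in fibroblast-like cells and 0.11 in endothelial-like cells. The difference between these ratios was not tested, since each group was 1 library, and both are under the limit of 1.5-fold.

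Cells that scored highest for Schwann markers, 17 and 9 cells, entered no comparison and carried members of the set. Timp3, the inhibitor bound to the matrix, was at 1643 CPM in db/+ (1381 to 1939, 139 UMIs) and 1198 CPM in db/db and salt (883 to 1588, 48 UMIs). Timp2 was at 579 CPM in db/+ (428 to 766, 49 UMIs) and 674 CPM in db/db and salt (444 to 980.3, 27 UMIs), with intervals that meet those of lymphatic cells in both libraries. Mmp2 was at 473 CPM in db/+ (338 to 644, 40 UMIs) and 424 CPM in db/db and salt (247 to 679, 17 UMIs). These values are above the level of 3 counts in these cells, which is 35.5 CPM in db/+ and 74.9 CPM in db/db and salt.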

How the results depend on the processing

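No paired analysis was possible because each group was 1 library. Of 67 alternatives for the 8 counts, medians and level comparisons, 56 kept the result within set limits, 10 moved it and 1 reversed its sign. The limits were 1.5-fold for a count, whichever genes were called, and 0.1 for a median. Of 50 alternatives for 5 single ratios 43, 6 and 1 did so, with a limit set by the counting interval and the 1.5-fold call. Under the mean CPM over cells, pericyte-like cells kept 5 calls, but Adamts2, Timp3 and Reck replaced Adamts5, Mmp2 and Mmp11. In fibroblast-like cells 1 member, Mmp3, was called under every alternative run, at log2 ratios from -1.49 (1 CPM added) to -0.80 (50 CPM added), and in endothelial-like cells 0 were called under every alternative run. The members' median in fibroblast-like cells turned from 0.10 to -0.077 with the 50 CPM filter, and that in endothelial-like cells moved from 0.14 to 0.033 with no filter, where other members were tested. The 5 calls in pericyte-like cells became 3 (20% mitochondrial UMIs), 2 (50 CPM added), 2 (50 CPM filter) and 9 (no filter). The 11 in smooth muscle-like cells became 4 (20% mitochondrial UMIs), 6 (50 CPM added) and 4 (50 CPM filter), and the 6 in endocardial-like cells became 1 with 50 CPM added and 2 with the 50 CPM filter. With fewer genes tested under the filter, and larger values added, fewer calls follow by construction. For the mitochondrial limit the cause was not tested. Adamts5 in endocardial-like cells turned from 0.64 to -0.14 without the top cell of each library, since 1 cell held 40 of its 68 UMIs. Depth limits the classes of 21 to 50 cells, where 3 UMIs were 5.51 to 19.8 CPM.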

Other observations

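Timp4 and the capillary markers were both higher in db/db and salt in the mural classes. In pericyte-like cells it had 1 and 10 UMIs (4.58 and 49.4 CPM), and the 7 capillary markers summed to 362 and 805 CPM, with 7 of 7 higher in db/db and salt. In smooth muscle-like cells it had 2 and 20 UMIs (13.2 and 81.7 CPM), of which 15 of the 20 were in 1 cell, and the same markers summed to 536 and 1074 CPM with 6 of 7 higher. These values were chosen after they were seen, and the part of the capillary markers in the Timp4 difference was not tested.

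Among members too rare for a description by class, Mmp27 of the chromosome 9 cluster had 59 of its 60 UMIs in fibroblast-like cells and 0 in endothelial-like cells. Adamts14 and Adamts3, the lesser procollagen proteases, had 2 and 0 UMIs in endothelial-like cells. Mmp17 and Mmp28 had 194 and 141 UMIs in endothelial-like and 113 and 84 in fibroblast-like cells over both libraries. Endothelial-like cells held more UMIs in all, and per UMI the levels were near each other. Mmp17 was at 4.13 and 4.92 CPM in endothelial-like and 3.98 and 4.71 CPM in fibroblast-like cells, db/+ first. Mmp28 was at 2.49 and 4.20 CPM and at 2.19 and 4.19 CPM.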
